A study of Danio rerio with 12 samples.

Results

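The 8 transcription factor genes described here, foxd3, sox10, sox9b, tfap2a, snai1b, dlx2a, pax3a and mitfa, are regulators of the neural crest. They were taken by name, as probe sets whose single gene symbol in the platform annotation is 1 of the 8. All 8 were found, on 9 of 15502 tested probe sets, since sox9b has 2 and every other gene 1. Whole zebrafish embryos were profiled on Affymetrix arrays at 10 and at 18 somites, with 3 arrays in each of 4 groups. Control embryos received a control morpholino that the labels call pbx2 mutant, and morphant embryos received morpholinos against pbx2 and pbx4. Injection was at the 1-2 cell stage in both. A morpholino is an antisense oligomer that blocks translation or splicing. Every embryo, controls included, was injected, and no uninjected group was used. Strain, clutch and the number of embryos per array are not given in the labels used here.

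The neural crest arises where neural plate meets epidermis. Signals at that border switch on border genes, among them pax3 and tfap2a, and these act before the crest specifiers foxd3, snail genes and the SoxE genes sox9 and sox10. Crest cells then leave the dorsal neural tube and form pigment cells, peripheral neurons and glia, and the skeleton of the pharyngeal arches. Pbx proteins are TALE homeodomain factors that bind DNA together with Hox proteins and with other homeodomain factors. Several of the 8 genes are also transcribed outside the crest: tfap2a in surface ectoderm, pax3a in the somites and dorsal neural tube, foxd3 in somites, dlx2a in the forebrain and mitfa in the pigmented layer of the eye. In whole embryos a lower signal from fewer cells of a type and from less RNA per cell cannot be told apart.

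Values are log2 signals per probe set, on which a difference of 1 is a 2-fold change. Arrays of a stage shared a scale, with medians of 7.29 to 7.31 at 10 somites and 6.52 to 6.57 at 18 somites. Arrays of 1 group correlated at 0.995 to 0.998 over probe sets. At 10 somites morphants had more signal of both morpholino targets, pbx2 by 1.75 ± 0.11 (model SE, n = 3 per group) and pbx4 by 0.45 ± 0.09, which does not check the knockdown. As a guide to background, the 8 tag controls (array probe sets for artificial sequences) read 4.05 to 6.26 on the control arrays at 10 somites and 3.45 to 5.29 at 18 somites. The crest marker crestin, at 9.68 and 9.51 in the control groups, stood above that range. So did 6 of the 8 regulators, while pax3a and mitfa did not.

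The first comparison asks which of these regulators differed between morphant and control embryos at 10 somites. The SoxE gene sox9b, which acts in crest formation and in cartilage precursors, fell, and it was the only 1 of the 8 genes called. The other 7 had differences from -0.17 to 0.24 and were not called. Calls were made with limma at an adjusted p under 0.05 over all probe sets, a threshold that 8.17% of probe sets passed at this stage, 4.32% higher and 3.85% lower. A count of 1 in 8 has to be read against that share. The median over the 8 genes was -0.02, beside -0.00450 over all probe sets. The model's 95% intervals left no room for a 2-fold change in the whole-embryo signal of any of the 8. The largest fold within any of them was 1.54, for sox9b. These intervals bound the signal of a probe set and not the transcript. The 2 probe sets of sox9b gave estimates of -0.44 and -0.25, whose intervals overlapped and whose difference was not tested. Both pax3a and mitfa lay at the level of background.

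**Figure D1:**
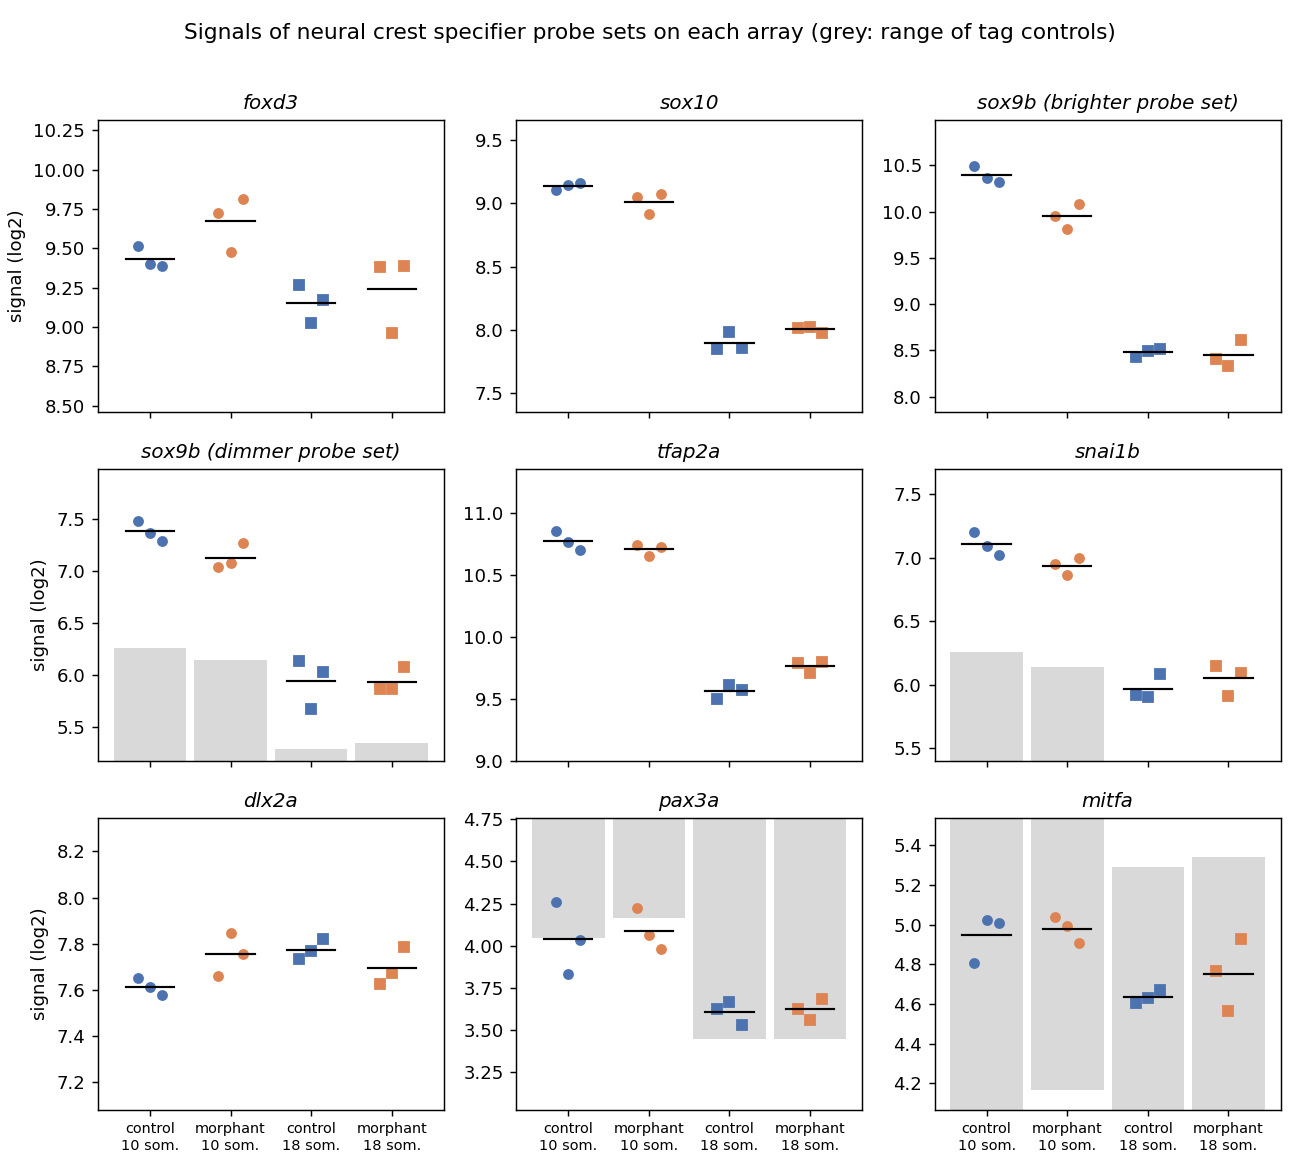
Signal (log2, vertical axis) of each of the 9 probe sets on each of 12 arrays (points, in order of replicate number within a group) with the group mean (line), for control (blue) and morphant (orange) embryos at 10 (circles) and 18 (squares) somites, with an axis range of its own in each panel. Grey bands span the 8 tag controls of each group where they fall inside the panel. At 10 somites the morphant points of sox9b lie below all control points, and the points of pax3a and mitfa lie at the level of the bands.

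At 10 somites the brighter sox9b probe set gave 10.49, 10.36 and 10.32 in controls, against 9.95, 9.82 and 10.08 in morphants. Every morphant array lay below every control array. The difference was -0.44 ± 0.09 (n = 3 per group, limma adjusted p = 0.00655), a 1.36-fold lower signal with a 95% interval of -0.62 to -0.25. The dimmer sox9b probe set gave 7.48, 7.37 and 7.29 in controls, against 7.03, 7.07 and 7.26 in morphants. Its groups did not overlap either, and its difference of -0.25 ± 0.11 was not called (limma adjusted p = 0.189). The call of the brighter probe set was kept without any single array, with adjusted p between 0.0081 and 0.0384, and was lost without the 4 arrays numbered 1 (-0.39, adjusted p = 0.13).

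Of the other SoxE genes, sox10, which crest cells need to form pigment cells, neurons and glia, read 9.11, 9.15 and 9.16 in controls, against 9.05, 8.92 and 9.07 in morphants at 10 somites. The morphant arrays were all lower, and the difference of -0.12 ± 0.07 was not called (95% interval -0.26 to 0.02, limma adjusted p = 0.289). The paralogues sox9a, with a mean of 6.11 in controls within the tag range, and sox8b were at -0.17 ± 0.10 and -0.21 ± 0.08 (limma adjusted p = 0.369 and 0.121). Of the 4 measured SoxE genes 1, sox9b, was called at this stage, beside 9.51% of all genes.

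The border gene tfap2a, an AP-2 factor of surface ectoderm and crest, read 10.86, 10.77 and 10.70 in controls, against 10.74, 10.66 and 10.73 in morphants at 10 somites. These groups overlapped, and the difference was -0.07 ± 0.07 (limma adjusted p = 0.609). The paired-box gene pax3a, which marks the border and dorsal neural tube, read 4.26, 3.83 and 4.03 in controls, against 4.22, 4.07 and 3.98 in morphants. These signals lay near or below the low end of the tag controls, so this probe set gave no measure of a fall. Its paralogue pax7a read 5.56 on average in controls, also within the tag range, and was at -0.11 ± 0.07 (limma adjusted p = 0.416).

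The forkhead gene foxd3, which maintains crest progenitors, read 9.51, 9.40 and 9.39 in controls, against 9.72, 9.48 and 9.82 in morphants at 10 somites. Of the morphant arrays, 2 lay above all controls and 1 among them. The difference of 0.24 ± 0.12 was not called (95% interval -0.01 to 0.49, limma adjusted p = 0.243). With the replicate number as a block shared by both stages its adjusted p was 0.0631, the lowest over its alternatives. The snail gene snai1b, a zinc finger repressor of premigratory crest, read 7.199, 7.094 and 7.023 in controls, against 6.950, 6.863 and 6.997 in morphants. The groups did not overlap, and the difference of -0.17 ± 0.08 was not called (95% interval -0.34 to 0.01, limma adjusted p = 0.237). Its paralogues snai1a and snai2 had estimates of the other sign, 0.11 ± 0.08 and 0.21 ± 0.06, and were not called either (limma adjusted p = 0.478 and 0.0596).

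Of the genes of crest derivatives, dlx2a, a homeobox gene of arch crest and forebrain, read 7.65, 7.61 and 7.58 in controls, against 7.66, 7.85 and 7.76 in morphants at 10 somites. All morphant arrays were higher, and the difference of 0.14 ± 0.07 was not called (95% interval -0.01 to 0.29, limma adjusted p = 0.247). The melanocyte regulator mitfa read 4.81, 5.02 and 5.01 in controls, against 5.04, 4.99 and 4.91 in morphants. These values overlapped and lay within the tag range, with a difference of 0.03 ± 0.09 (limma adjusted p = 0.878). In all, 4 of the 8 genes had groups that did not overlap at this stage, sox9b, sox10 and snai1b lower and dlx2a higher, beside 28.4% of all probe sets.

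**Figure D2:**
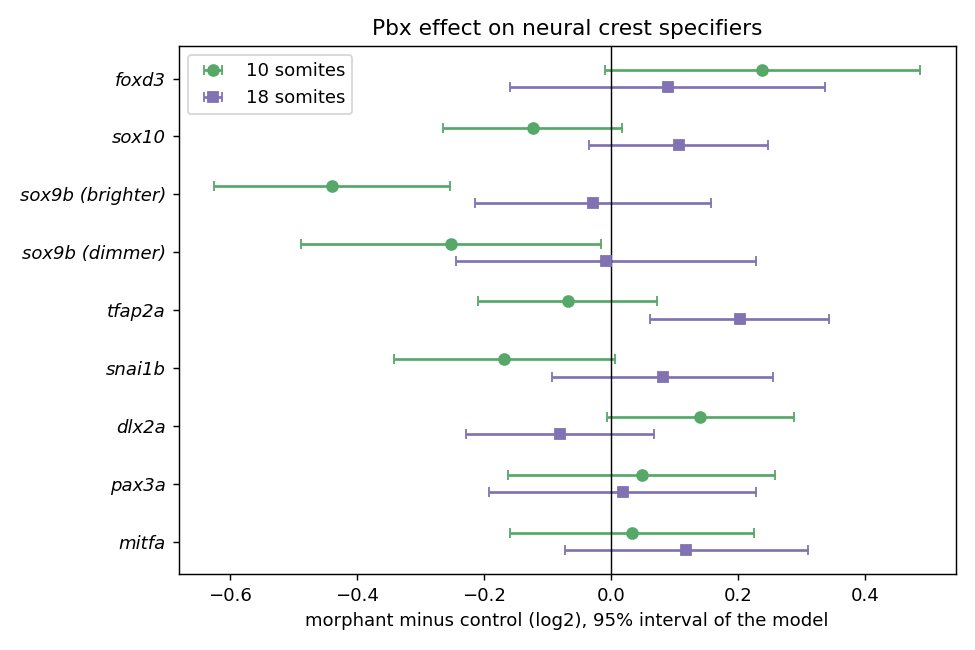
Difference between morphant and control embryos (log2, horizontal axis) for the 9 probe sets at 10 somites (green circles) and 18 somites (purple squares), with bars for the 95% interval of the limma model. The interval of the brighter sox9b probe set at 10 somites, -0.62 to -0.25, is the farthest from 0. At 18 somites the interval of tfap2a, 0.06 to 0.34, lies above 0.

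At 18 somites none of the 8 regulators was called by limma, while 12.5% of all probe sets were, 7.11% higher and 5.37% lower. At an unadjusted p under 0.05 the count was 1 of 8, tfap2a, and 4011 of 15502 over all probe sets. The 8 differences ran from -0.08 to 0.20 with a median of 0.09, beside 0.00100 over all probe sets. No 95% interval of the 8 representative probe sets reached beyond -0.23 or 0.34. Only the groups of tfap2a did not overlap, beside 28.1% of all probe sets.

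At 18 somites tfap2a gave 9.50, 9.61 and 9.57 in controls, against 9.79, 9.71 and 9.80 in morphants. All morphant arrays were higher, by 0.20 ± 0.07, and the adjusted p of 0.0601 missed the limma threshold. It was called with the replicate number as a block shared by both stages (0.0496), with a variance trend (0.0339) and among the 60% brightest probe sets (0.0361), and not with a block within each stage (0.0601). The AP-2 paralogue tfap2b fell by 0.45 ± 0.12 (5.62 to 5.17, the latter within the tag range, limma adjusted p = 0.026). Leaving out control array 2 or 3, or morphant array 1 or 2, ended that call (adjusted p 0.087, 0.0681, 0.101 and 0.0645). The third measured AP-2 gene, tfap2c, was at 0.05 ± 0.13 (limma adjusted p = 0.862).

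At 18 somites sox9b was not called. The brighter probe set gave 8.43, 8.50 and 8.51 in controls, against 8.41, 8.33 and 8.61 in morphants, a difference of -0.03 ± 0.09 with overlapping groups (95% interval -0.21 to 0.16, limma adjusted p = 0.886). The dimmer one read 6.13, 5.67 and 6.02 against 5.86, 5.86 and 6.07, a difference of -0.01 ± 0.11. For sox10 the values were 7.85, 7.98 and 7.86 in controls, against 8.01, 8.02 and 7.98 in morphants, where 1 control array lay among the morphants. The sox10 difference of 0.11 ± 0.07 was not called (95% interval -0.03 to 0.25, limma adjusted p = 0.341). The paralogues sox9a and sox8b were at 0.001 ± 0.10 and -0.12 ± 0.08 (limma adjusted p = 0.996 and 0.355).

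The foxd3 probe set gave 9.27, 9.03 and 9.17 in controls, against 9.38, 8.96 and 9.39 in morphants at 18 somites, a difference of 0.09 ± 0.12 (limma adjusted p = 0.692). The morphant arrays spread over more than the controls, and the array numbered 2 was the lowest in both groups. The snai1b probe set gave 5.92, 5.90 and 6.09 against 6.15, 5.91 and 6.09, a difference of 0.08 ± 0.08 (limma adjusted p = 0.588). In contrast to snai1b, its paralogue snai2 rose by 0.29 ± 0.06 (8.68 to 8.97, limma adjusted p = 0.00882), and snai1a was at 0.24 ± 0.08 (limma adjusted p = 0.075). Of the other snai2 probe sets, 1 gave 0.27 (limma adjusted p = 0.0403) and 1 gave 0.25 (0.0772). The difference between snai1b and snai2 was not tested.

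For dlx2a the values at 18 somites were 7.74, 7.77 and 7.82 in controls, against 7.63, 7.67 and 7.78 in morphants, a difference of -0.08 ± 0.07 (limma adjusted p = 0.519). Its groups overlapped through 1 morphant array. The pax3a values of 3.63, 3.66 and 3.53 against 3.63, 3.56 and 3.69 lay at the low end of the tag range. The mitfa values of 4.60, 4.63 and 4.67 against 4.76, 4.57 and 4.93 lay within it, with a difference of 0.12 ± 0.09 (limma adjusted p = 0.453). The pigment genes dct and tyr, which encode enzymes of melanin synthesis, read 5.38 and 4.99 in controls at 18 somites, just above and within the tag range, and were at -0.00133 and -0.20 (limma adjusted p = 0.994 and 0.138).

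Whether the effect of the morpholinos differed between the stages was tested for each gene as the 18 somite effect minus the 10 somite effect. None of the 8 was called by limma, in a comparison where 0.0323% of all probe sets were. At an unadjusted p under 0.05 there were 5 of 8 and 1257 of 15502. For sox9b the effects were -0.44 and -0.03, and their difference was 0.41 ± 0.12 (95% interval 0.15 to 0.67, unadjusted p = 0.00467 from limma, adjusted p = 0.34). Over its alternatives that adjusted p ran from 0.157 to 0.945. The others with an unadjusted p under 0.05 were tfap2a at 0.27 ± 0.09, snai1b at 0.25 ± 0.11, sox10 at 0.23 ± 0.09 and dlx2a at -0.22 ± 0.10. Their adjusted p ran from 0.444 to 0.607. The effect on sox9b was thus not shown to differ between the stages.

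The regulators were next set in the context of 6 lists of other crest genes, of which 84 of 132 listed genes were measured. Whole embryos were profiled, so the tissue in which a listed gene changed was not measured. At 10 somites 3 of the 84 rose and 4 fell, or 8.33%, beside 9.51% of all 8793 genes, of which 4.98% were higher and 4.53% lower. With the replicate block within each stage 15 were called, 5 higher and 10 lower, beside 2040 of 15502 probe sets. Without the 4 arrays numbered 1 only 2 were called, beside 333 of 15502 probe sets. Of 17 neural plate border genes, msx1a, a homeobox gene of the border, fell by 0.38 ± 0.08 (8.42 to 8.04, limma adjusted p = 0.00729), dlx4b fell by 0.32 ± 0.07 and bmp2b, a ligand that patterns the border, rose by 0.33 ± 0.09. Leaving out control array 1 or 2, or morphant array 2, ended the dlx4b call (adjusted p 0.0692, 0.0717 and 0.0661). For bmp2b the same held of control array 2 or 3 and of morphant array 1 or 3 (0.168, 0.104, 0.124 and 0.157).

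Among 17 other crest specifiers 1 rose at 10 somites, sox4a, an HMG box gene, by 0.41 ± 0.08 (limma adjusted p = 0.00933). None of 15 genes of crest migration and receptors and none of 10 pigment genes was called. The counts of these single lists stand beside 4.98% of all genes higher and 4.53% lower. Of 15 arch genes 1 rose, hand2, a bHLH gene of arch crest that is also transcribed in heart and fin mesoderm, by 0.42 ± 0.07 (9.95 to 10.37, limma adjusted p = 0.00206). Of 11 genes of crest neurons and glia, which include hand2, the proneural factors neurog1 and ascl1a fell by 0.73 ± 0.08 and 0.72 ± 0.10. Both are also transcribed in the central nervous system.

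At 18 somites 15 of the 84 rose and 6 fell, or 25%, beside 14.8% of all genes, of which 8.28% were higher and 6.48% lower. With each array centred on its median the split was 14 and 9, while over all probe sets it moved from 1102 higher and 833 lower to 905 and 1008. Without the 4 arrays numbered 1 the count was 8, or 4 higher and 4 lower, beside 677 of 15502 probe sets. Of the 21 called genes, 11 kept their call without any single array and 10 lost it without at least 1. The pan-crest marker crestin read 9.55, 9.67 and 9.31 in controls, against 8.93, 8.94 and 8.93 in morphants, all lower, and fell by 0.58 ± 0.14 (limma adjusted p = 0.0125). It lost the call without the control array numbered 2 (-0.50, adjusted p = 0.0539). At 10 somites crestin was at -0.42 ± 0.14 and was not called (limma adjusted p = 0.0754), and the difference between the stages was not called either (-0.16 ± 0.19, limma adjusted p = 0.9).

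**Figure D3:**
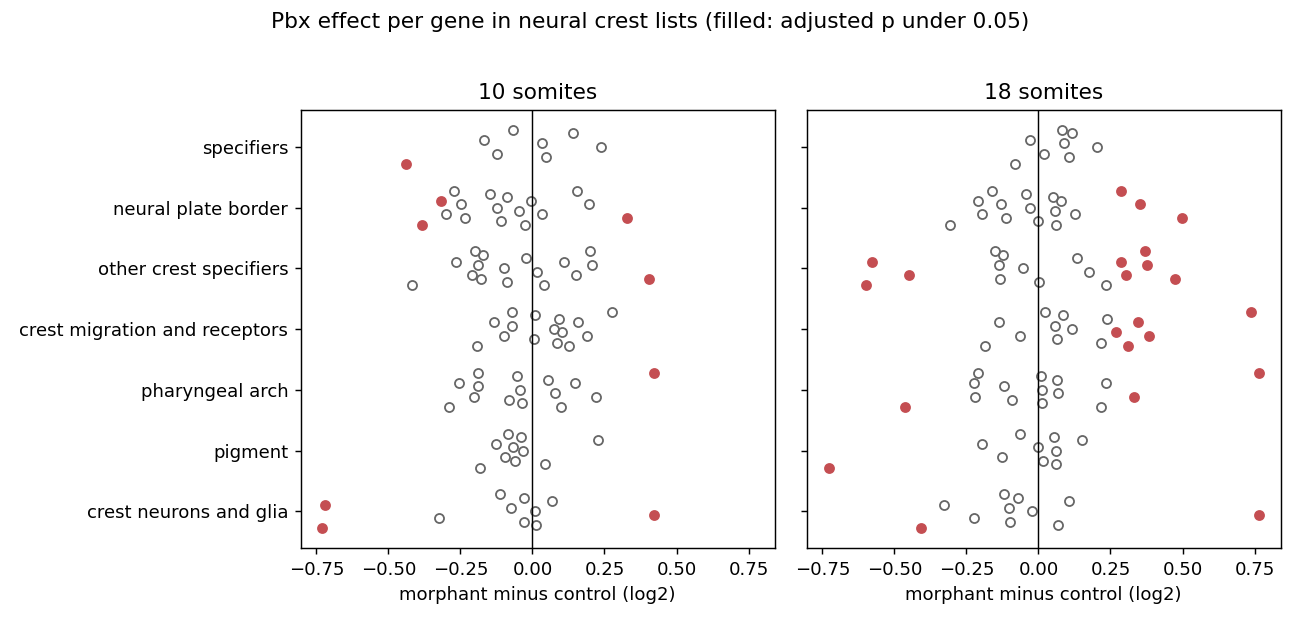
Difference between morphant and control embryos (log2, horizontal axis) at 10 somites (left) and 18 somites (right) for the 8 specifiers and for the measured genes of 6 other crest lists, 1 point per gene and list, spread vertically only for display. Filled red points are genes called by limma. Among the specifiers 1 point is filled at 10 somites and none at 18 somites, and hand2 stands in 2 lists.

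Of the 15 genes of crest migration and receptors 5 rose at 18 somites and none fell, beside 8.28% of all genes higher and 6.48% lower. The chemokine receptor gene cxcr4a read 8.35, 8.26 and 8.11 in controls, against 8.89, 9.09 and 8.95 in morphants, a rise of 0.74 ± 0.09 (limma adjusted p = 0.00022). The others were cxcl12b, a ligand of chemokine receptors, at 0.31 ± 0.07, the neuropilin gene nrp2b at 0.35 ± 0.09, and, at signals at or near the tag range, the endothelin receptor gene ednraa at 0.38 ± 0.11 and the receptor kinase gene kita at 0.27 ± 0.07. Each of these 4 lost its call without single arrays. The highest adjusted p was 0.0584 for cxcl12b without the control array numbered 3, 0.0979 for nrp2b without the control array numbered 1, 0.15 for ednraa without the control array numbered 1, where the difference was 0.24, and 0.122 for kita without the control array numbered 2.

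Of the arch genes hand2 rose by 0.77 ± 0.07 (8.31 to 9.07, limma adjusted p = 1.8e-05) and dlx5a by 0.33 ± 0.09, and prrx1b fell by 0.46 ± 0.06, at signals within the tag range. The dlx5a call ended without control array 1 or 2 or morphant array 3 (adjusted p 0.0674, 0.0665 and 0.0756). Of the border genes bmp2b, msx1b and dlx3b rose, by 0.50 ± 0.09, 0.35 ± 0.07 and 0.29 ± 0.09, and dlx3b lost its call without any 1 of the 6 arrays (0.0746 to 0.148). Of the other crest specifiers foxd5, a forkhead gene, rose by 0.48 ± 0.07 and myca, a Myc gene, fell by 0.60 ± 0.09. In all 5 of these 17 rose and 3 fell, beside 8.28% of all genes higher and 6.48% lower. Of the pigment genes 1 of 10 was called, beside 14.8% of all genes. It was gch2, of pteridine synthesis in xanthophores, which fell by 0.73 ± 0.12 from 5.16 to 4.43, within the tag range, while its other probe set gave -0.17 (limma adjusted p = 0.234). Of the crest neuron genes neurog1 fell by 0.41 ± 0.08 and hand2 rose.

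Lists for tissues in which some of the 8 genes are also transcribed were counted in the same embryos, beside 9.51% of all genes called at 10 somites (4.98% higher, 4.53% lower) and 14.8% at 18 somites (8.28% higher, 6.48% lower). The part of these tissues in the results was not tested. At 10 somites, where sox9b fell, 5 of 12 retina genes fell and 1 rose, and the list's mean signal was 7.88 to 7.99 on control arrays and 7.54 to 7.71 on morphant arrays. Of 12 preplacodal and otic genes 3 fell, with means of 8.23 to 8.29 and 8.07 to 8.13. At 18 somites, where sox9b was not called, 3 retina genes rose and 3 fell. The retina means were then 7.01 to 7.08 on control arrays and 6.95 to 6.97 on morphant arrays. Of the placodal genes 1 rose and 2 fell, with means of 7.26 to 7.29 and 7.15 to 7.19. The means of both lists were thus lower in morphants at both stages. The median difference of the 12 retina genes at 18 somites was nevertheless 0.02. The largest difference among the called retina genes there was -1.59, for mab21l1. Of 11 epidermis genes, which bear on tfap2a, 1 fell at 10 somites, tp63, and 1 rose at 18 somites, epcam, or 9.09% at each stage, no more than the share of all genes. The epidermis means at 18 somites overlapped, at 10.88 to 10.93 in controls and 10.77 to 10.93 in morphants. Of 13 somite genes 1 fell at 10 somites, and 5 rose and 1 fell at 18 somites. Of 11 forebrain genes 1 rose at 10 somites. At 18 somites 3 of them rose, of which lhx9, at 3.61 and 3.90, lay within the tag range. Within the tag range in controls at 10 somites lay 4 of the 11 forebrain genes, 2 of the 12 retina genes, 1 of the 12 placodal genes, 1 of the 13 somite genes and none of the 11 epidermis genes.

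The change from 10 to 18 somites in control embryos was measured after each array was centred on its median, because the deposited control medians differed by -0.77 between the stages. Relative to the median, dlx2a, foxd3, mitfa and pax3a rose and sox9b, sox10, tfap2a and snai1b fell. All 8 were called by limma, where 50.9% of all probe sets were, 24.4% higher and 26.5% lower. The groups of all 8 did not overlap, beside 58.3% of all probe sets. On the deposited scale, without centring, dlx2a alone was higher at 18 somites and foxd3, mitfa and pax3a were lower, so that their direction rests on the centring.

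The arch gene dlx2a rose by 0.93 ± 0.07, or 1.90-fold (n = 3 per stage, limma adjusted p = 2.31e-07), from centred means of 0.32 ± 0.03 to 1.25 ± 0.05 (SD). Its relatives dlx1a and dlx2b rose by 1.00 ± 0.07 and 0.58 ± 0.10, dlx1a from within the tag range and dlx2b within it at both stages, while the border genes dlx3b and dlx4b fell by 0.81 ± 0.09 and 0.41 ± 0.07. On the deposited scale the rise of dlx2a was only 0.16 (limma adjusted p = 0.0365). There dlx1a was higher too, at 5.67 and 5.91, and dlx2b lower, at 4.49 and 4.31. The progenitor gene foxd3 rose by 0.49 ± 0.11 (limma adjusted p = 0.00245), where the deposited values gave -0.28 (adjusted p = 0.0308). The rise was 0.60 with quantile normalization and 0.37 with centring on the tag controls.

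The SoxE gene sox9b fell by 1.14 ± 0.08, or 2.21-fold (limma adjusted p = 1.92e-07), from centred means of 3.10 ± 0.09 to 1.95 ± 0.05 (SD, n = 3). Its dimmer probe set fell by 0.67 ± 0.11. The falls of sox10 and tfap2a were 0.48 ± 0.07 and 0.45 ± 0.06, and that of snai1b 0.37 ± 0.08. Under the 4 scalings tried the signs of these 4 held, with values for sox9b between -1.91 and -1.02. The paralogues sox9a and sox8b were at 0.04 ± 0.10 and -0.00367 and were not called, snai1a fell by 0.61 ± 0.09, and snai2 was at -0.05 ± 0.06.

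**Figure D4:**
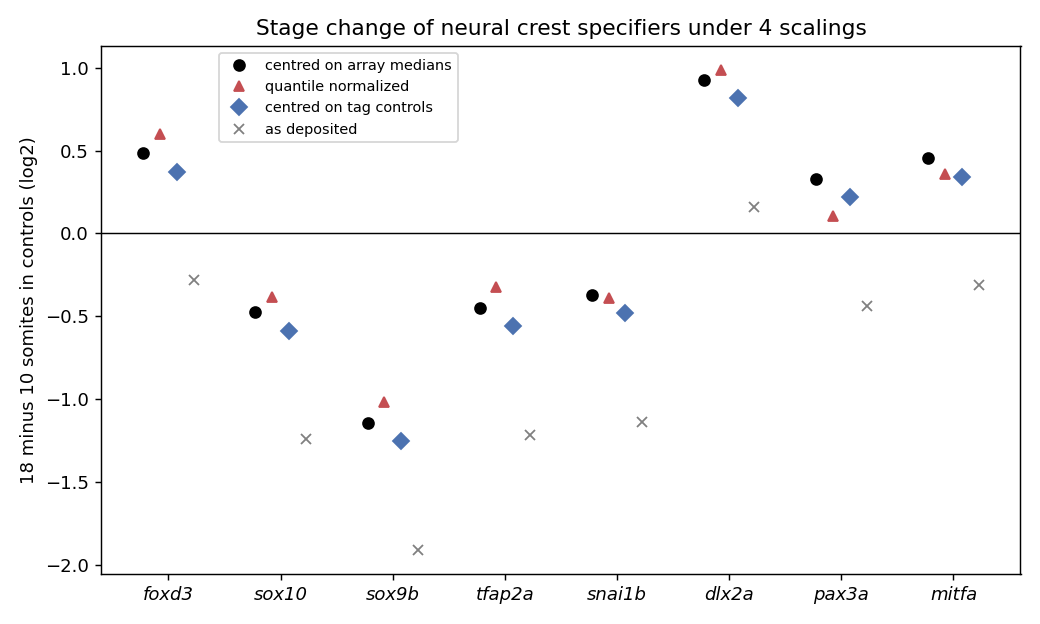
Change from 10 to 18 somites in control embryos (log2, vertical axis) of each regulator with arrays centred on their medians (black circles), quantile normalized (red triangles), centred on the 8 tag controls (blue diamonds) or as deposited (grey crosses). The signs of foxd3, pax3a and mitfa differ between the deposited and the other scales, and sox9b, sox10, tfap2a and snai1b are below 0 on each.

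The melanocyte regulator mitfa rose by 0.45 ± 0.09 (limma adjusted p = 0.000625) and pax3a by 0.33 ± 0.10 (0.0106). Both signals lay at the level of the tag controls, whose own centred change ran from -0.47 to 0.61 over the 8 probe sets, so these 2 rises cannot be told apart from changes in background. The pax3a call was lost with quantile normalization (0.10, adjusted p = 0.395), with centring on the tag controls (0.22, 0.0821) and without the control array at 10 somites numbered 2 (0.23, 0.0591). On the deposited scale both were lower, mitfa by -0.31 and pax3a by -0.44.

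In the other crest lists 28 of 84 genes rose and 20 fell between the stages, or 57.1%, beside 51.1% of all genes (21.8% higher and 29.3% lower), and the split was 21 and 24 with centring on the tag controls. Over all probe sets the main split of 3786 higher and 4106 lower became 2225 and 5837 with that centring. Of 15 arch genes 11 rose and 3 fell, with a median of 0.34 beside -0.04 over all genes. In controls at 10 somites 5 of the 15 read within or below the tag range. Those 5 were the risers dlx1a, dlx2b, barx1 and prrx1b and, among those that fell, gsc. The centred change of the tag controls themselves ran from -0.47 to 0.61. With centring on the tag controls 8 of the 15 arch genes rose, and on the deposited scale 1 did. Among the risers was prrx1a, a homeobox gene of arch crest, at 0.46 ± 0.11, and among those that fell hand2 at -0.87 ± 0.07. The marker crestin rose by 0.60 ± 0.13 relative to the median, while its deposited means were 9.68 and 9.51.

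The genes whose signals followed each regulator most closely over the 12 centred arrays were found by Pearson's r. The stages stand apart, so r over all arrays carries the stage change. Values within the 6 arrays of each stage are given after it in the same order, as a description. The arrays of a stage include controls and morphants, so r within a stage carries any difference between them. For sox9b they were ing5b (0.984 over all arrays, 0.899 within 10 somites and 0.839 within 18 somites), dusp2, a phosphatase gene (0.980, 0.864 and 0.842), and szl, which encodes sizzled, a secreted Bmp regulator (0.979, 0.975 and 0.259). For tfap2a they were dlx3b (0.968, 0.986 and 0.779), hoxa9a (0.966, 0.852 and 0.893) and ash1l (0.962, 0.669 and 0.931).

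For foxd3 the closest were cyp51, an enzyme gene of sterol synthesis (0.954, 0.909 and 0.873), tspan37 (0.949, 0.845 and 0.894) and ndel1b (0.929, 0.809 and 0.798). For sox10 they were zgc:123295 (0.976, 0.907 and 0.726), septin8a (0.971, 0.990 and 0.528) and dtnba (0.968, 0.933 and 0.705). For snai1b they were qdprb.4 (0.936, 0.851 and 0.816), cnot3b (0.933, 0.935 and 0.649) and klf17 (0.932, 0.947 and 0.581). The dlx2a signal was followed by sncgb (0.989, 0.846 and 0.579), ponzr1 (0.985, 0.623 and 0.544) and slc32a1, the vesicular transporter gene of inhibitory neurons (0.983, 0.308 and 0.942). Since mitfa and pax3a lay at the level of the tag controls, their r describe the signal and not the transcript. The mitfa signal was followed by zgc:110843 (0.984, 0.814 and 0.923), kdrl (0.975, 0.692 and 0.836) and rtn1b (0.975, 0.576 and 0.910). The pax3a signal was followed by ech1 (0.938, 0.915 and -0.38), si:ch211-248a14.8 (0.918, 0.876 and 0.628) and ttyh3b (0.918, 0.812 and 0.394). For several of these genes r within a stage was far below r over all arrays.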

How the data were processed

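Log2 expression values per probe set were deposited by the authors (15617 rows, 12 arrays). The submitters' processing notes name RMA and affy without a version. Whether both stages were normalized in 1 run is not stated there. Labelling started from 6 µg of RNA, per the labels' protocols. The 115 AFFX probe sets were left out. Symbols came from the platform annotation (10795 probe sets with 1 symbol, 135 with several, 4572 with none), updated by gene ID through RefSeq's GRCz12tu gene table (10711 matched). A gene was represented by its probe set with the highest mean.

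Group means were fitted with lmFit and eBayes of limma 3.58.1 (R 4.3.3) over all 12 arrays, with Benjamini-Hochberg adjustment over 15502 probe sets. Values after ± are model standard errors unless marked SD. The stage change used arrays centred on their medians. The fit was checked on simulated data, in which few probe sets changed between morphants and controls at 10 somites. There 10 of 100 changes of 0.25 and 80 of 100 changes of 0.5 were called, so small changes can go uncalled. The simulated arrays had independent noise and fewer changes than were called in the data. These rates are therefore not those of the real comparison. Replicates may be technical, so p-values measure only the spread between these arrays, whose number limits the precision.

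Named context genes were the 4 lowest and 4 highest called of the 6 crest lists at each stage, and all called genes of lists with 5 or fewer calls. Paralogues of the 8 genes, dct, tyr, tp63, epcam, lhx9, prrx1a, and the values of crestin at 10 somites and between the stages, were chosen after their values were seen. The 8 genes and the lists were chosen with earlier results of these data known. Deviations of same-numbered control and morphant arrays correlated at 0.548, 0.214 and 0.246 at 10 somites and 0.408, 0.301 and 0.325 at 18 somites. All were over 0.1, so a pairing by number was tried, as replicate blocks among the alternatives. The main fit held no block, and its standard errors, p-values and calls leave this pairing out. Over any groups, same numbers gave 0.180 to 0.548 and different numbers -0.43 to 0.231, ranges that overlap: at 10 somites control 3 with morphant 2 (0.231) exceeded control 2 with morphant 2. This pairing comes from the data, as the labels give only the numbers. Alternatives were other scalings, replicate blocks, array weights, a variance trend, a filter, mean probe sets and leaving out arrays. Leaving out the arrays numbered 1 and centring on tag controls were chosen after seeing the data.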

Additional observations from a re-analysis of the deposited data

How the results depend on the processing

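For 5 of 8 genes at 10 somites, 5 of 8 at 18 somites, 6 of 8 for the difference between stages and 5 of 8 for the stage change, sign and call were the same under each alternative run. At 10 somites sox9b lost its call without the 4 arrays numbered 1, which left 0 genes called. At 18 somites tfap2a gained one, for a count of 1, with a variance trend, with the replicate block shared by both stages and among the 60% brightest probe sets. The replicate block changed no other call of the 8. Signs of uncalled differences near 0 turned for mitfa at 10 somites (-0.00440 with array weights, -0.0665 without the 4 arrays numbered 1, and -0.0368 to 0.0707 without single arrays) and for pax3a at 18 somites (-0.005 with median centring). Without single arrays they also turned for pax3a (-0.0568 to 0.156 at 10 somites, -0.0213 to 0.0508 at 18 somites and -0.138 to 0.0748 for the difference), sox9b at 18 somites (-0.108 to 0.0307) and mitfa in the difference (-0.00167 to 0.178). In the stage change, foxd3 (-0.28), mitfa (-0.31) and pax3a (-0.44) turned on the deposited scale.

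Of all probe sets, 1267 were called at 10 somites, and 2447 with array weights, 2040 and 2155 with the replicate block within and across stages, 333 without the 4 arrays numbered 1 and 643 to 1183 without single arrays. Of the 84 crest list genes 7 were called there, and 21 with array weights, 15 and 16 with the blocks and 2 without the arrays numbered 1. At 18 somites 1935 probe sets were called, and 2809 and 2866 with the replicate block within and across stages. The count was 677 without the arrays numbered 1 and 1213 to 1532 without single arrays. Of the crest list genes 21 were called there, 28 and 26 with the blocks and 8 without the arrays numbered 1. For the difference between stages the 5 calls became 32 with array weights, 14 with median centring, 8 with mean probe sets, 24 with a variance trend, 11 with quantile normalization, 55 and 52 with the replicate block across and within stages, 3 among the brightest probe sets, 0 without the arrays numbered 1 and 1 to 20 without single arrays. For the stage change 7892 calls became 14805 on the deposited scale and 4300 among the brightest probe sets, where fewer were tested. The crest list count of 48 of 84 became 77 of 84 on the deposited scale. Among the brightest probe sets it was 31 of the 57 genes still measured. The count of 11 of 15 risen arch genes became 1 of 15 on the deposited scale. Among the brightest probe sets it was 6 of the 8 still measured. The filter removes pax3a and mitfa. The cause of these shifts was not tested otherwise.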

Other observations

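The foxd3 signal was lowest on the array numbered 2 in 3 of the 4 groups, which were the controls at 18 somites (9.03) and the morphants at 10 and 18 somites (9.48 and 8.96).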
